A study of Mus musculus with 3 samples.

Results

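The 10 genes described here are long non-coding RNAs of 3 kinds: 3 that stay in the nucleus (Malat1, Neat1 and Kcnq1ot1), 5 that carry small nucleolar RNAs (snoRNAs) within them (Gas5, Snhg1, Snhg3, Snhg5 and Snhg12), and 2 that host or are known for microRNAs (Mir17hg and Pvt1). They were chosen by name, not by their values, though with earlier results of these data known. All 10 were found among the 50600 genes of the count tables. The libraries were made from mouse Th1 cells, the CD4+ helper T cells that make interferon gamma. Primary C57BL/6NJ cells gave 3 libraries of a single group, replicates 1, 2 and 3, all under the same donor identifier, and the table headers place them at 48 hours of a Th1 and Th2 differentiation course. The labels leave sex uncollected and age unknown, and list no genetic change and no agent. The assay is titled total RNA-seq, whereas the linked library protocol is named for poly(A)+ RNA; which RNA was selected bears on transcripts without a poly(A) tail and was not tested. The labels do not say that the replicates came from separate animals, so the spread between them may be technical.

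Malat1 is an abundant RNA of nuclear speckles, the bodies in which splicing factors gather. Neat1 is the scaffold of paraspeckles, and Kcnq1ot1 is an imprinted RNA that silences neighbouring genes on the chromosome it is made from. In snoRNA host genes the snoRNAs lie in introns and are cut out after splicing to guide the chemical modification of ribosomal RNA. The spliced exons of Gas5 and several Snhg genes begin with a tract of pyrimidines, are bound by ribosomes and are degraded by nonsense-mediated decay. Mir17hg gives rise to the miR-17-92 cluster, which promotes proliferation and survival of activated lymphocytes, and Pvt1 lies next to Myc.

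The sequences that these host genes carry come first, because the counts below are those assigned to the host genes. Outside Snhg3, none were assigned to the small RNA genes within them. The 6 microRNA hairpins of Mir17hg lie within its exons on chromosome 14 (mm10, plus strand). For each hairpin 1 mature form is given, 5′ to 3′, from RefSeq on GRCm38.p6, with the seed (bases 2 to 8, which pair with target messages) in capitals.
mmu-miR-17-5p: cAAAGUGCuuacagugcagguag
mmu-miR-20a-5p: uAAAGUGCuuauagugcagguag
mmu-miR-18a-5p: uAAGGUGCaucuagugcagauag
mmu-miR-19a-3p: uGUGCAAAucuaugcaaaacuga
mmu-miR-19b-3p: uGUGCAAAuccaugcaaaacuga
mmu-miR-92a-3p: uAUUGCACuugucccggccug
The miR-17 and miR-20a forms share 1 seed, and the miR-19a and miR-19b forms share another. The miR-18a and miR-92a forms have a seed of their own within the cluster.

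The annotation places 27 snoRNA genes within the 5 snoRNA hosts on the host's own strand, 10 in Gas5, 8 in Snhg1, 5 in Snhg12 and 2 each in Snhg3 and Snhg5. Snord80 in Gas5 and Snora16a in Snhg12 are each entered as 2 overlapping genes and counted as 2. Box C/D snoRNAs, which guide methylation of ribosomal RNA, are known by a C box near the start and a D box near the end. Of the 27, 16 held the letters TGATGA in the first 20 bases and CTGA in the last 20 on the transcribed strand, against 20.5% of all 1507 snoRNA transcripts and 69.4% of the 98 genes named Snord. Both Snord80 entries are among the 16. The snoRNAs of Snhg3 (Snora73a and Snora73b) held neither. Of the 5 in Snhg12, Snord99 alone held both. The examples below come from GENCODE M21 transcripts, with both boxes in capitals, and lie in Gas5, Snhg5 and Snhg12.
Snord80 in Gas5: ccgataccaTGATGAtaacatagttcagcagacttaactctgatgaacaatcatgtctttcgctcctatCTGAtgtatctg
Snord47 in Gas5: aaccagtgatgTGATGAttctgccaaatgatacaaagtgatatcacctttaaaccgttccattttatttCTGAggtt
Snord50a in Snhg5: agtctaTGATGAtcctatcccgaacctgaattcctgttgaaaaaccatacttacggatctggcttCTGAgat
Snord50b in Snhg5: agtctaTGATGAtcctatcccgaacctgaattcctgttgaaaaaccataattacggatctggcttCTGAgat
Snord99 in Snhg12: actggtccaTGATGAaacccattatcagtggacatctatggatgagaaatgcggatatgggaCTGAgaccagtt
The pair in Snhg5 differs at 1 of 72 positions, C50A from Snord50a to Snord50b, counted from the 5′ end. A read from within either that misses this position matches both.

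The small RNAs themselves were almost without counts. Of the 27 snoRNA and 6 microRNA genes, 29 lie wholly within exons that the annotation also gives to the host on the same strand. Those 29 had 0 counts in every library. Snora73a and Snora73b, in Snhg3, had 30, 0 and 9 counts together in replicates 1, 2 and 3, and the rest had none. The counting program, as its headers are written, discards fragments that fall on more than 1 gene of a strand, so a count of 0 within a host exon does not show that the small RNA was absent. Across the whole tables, 115, 7 and 91 of 1507 snoRNA genes and 130, 28 and 136 of 2202 microRNA genes had a count.

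The libraries differed in depth and in kind. Replicates 1, 2 and 3 held 4742025, 50627 and 3543816 counts, so that 3 counts correspond to 0.633, 59.3 and 0.847 CPM (counts scaled to a common library total). A gene without a count in replicate 2 could thus have been well expressed. Counts were assigned by strand, with a forward setting. Between replicates 1 and 3 the 5857 genes with at least 50 counts and no exon under a gene of the other strand had a median log2 CPM ratio (3 over 1) of -0.84, whereas the 211 genes lying for at least 90% under opposite-strand exons had a median of 0.78. Whether the forward setting matches the library kit was not tested, and each value below is the fragments assigned to the annotated strand. The T cell markers Cd3e, Cd3d, Cd3g, Trac, Cd4 and Thy1 and the Th1 markers Tbx21, Ifng, Stat4 and Il12rb1 exceeded 1 TPM (counts divided by exonic length and scaled to a common sum per library) in every library. The Th1 marker Cxcr3 did not, at 4, 0 and 2 counts. Of the CD8, B cell and myeloid markers, Cd8a, Ncr1, Ms4a1, Lyz2, Itgam and Cd14 had 0 counts in every library. The summed level of the 4 myeloid markers was 105, 84.5 and 167 TPM, all of it Csf1r (17.8% under opposite-strand exons), and that of the 4 B cell markers was 103, 21.9 and 53.9 TPM, mostly Ighm. The 4 CD8 or NK markers summed to 10.2, 27.8 and 5.52 TPM. Xist, the RNA of the inactive X chromosome, had 691, 18 and 3 counts although the replicates carry 1 donor identifier; it was singled out after its values were seen.

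Most of these genes were detected. In replicates 1 and 3, 8 of the 10 reached 1 TPM, against 24.2% of all genes and 15.8% of 10979 genes annotated as long non-coding. In every library 5 of the 10 did (Malat1, Gas5, Snhg1, Snhg5 and Mir17hg), against 14.8% of all genes and 8.42% of the long non-coding ones. Because the genes were chosen as well known ones, their share above the background is a description. In bulk RNA, fewer cells expressing a gene and less of its RNA per cell cannot be told apart.

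**Figure D1:**
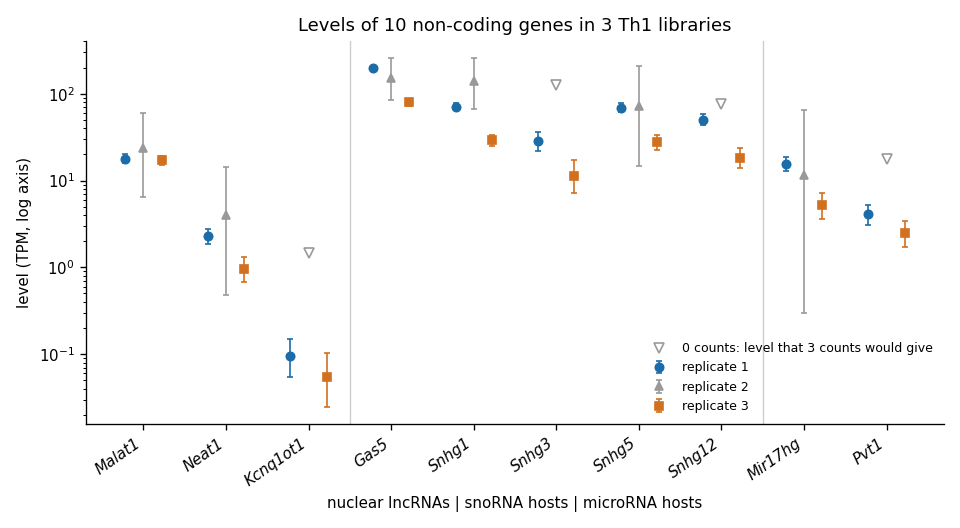
TPM of each gene in replicates 1 (circles), 2 (triangles) and 3 (squares) on a log axis, with exact 95% Poisson intervals that cover counting error only; open triangles mark 0 counts, drawn at the level that 3 counts would give. The snoRNA hosts span 11.3 TPM (Snhg3, replicate 3) to 198 TPM (Gas5, replicate 1), Malat1 lying above Snhg3 in replicate 3, and Kcnq1ot1 is lowest in replicates 1 and 3, at 0.094 and 0.054 TPM.

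Of the nuclear RNAs, Malat1 (chr19:5795690-5802672, minus strand, mm10, 1 exon of 6983 bases) had 268, 4 and 235 counts in replicates 1, 2 and 3, or 17.9, 23.7 and 17.1 TPM. Its mean of 19.5 ± 3.58 TPM (SD, n = 3) was the steadiest of the 10 relative to its level, with overlapping counting intervals in all 3 libraries (15.8 to 20.2 TPM in replicate 1 and 15.0 to 19.4 in replicate 3). This holds for TPM, whereas a test given further below, on another scale, called Malat1 as varying between libraries. Malat1 ranked 952nd, 819th and 1037th among the 10979 long non-coding genes. Although Malat1 is known as an abundant nuclear RNA, Gas5 was above it in every library, as fragments were assigned by strand. Plus-strand genes within the Malat1 exon had more counts than Malat1 itself (given further below). Gas5 has no such genes over it. How far this bears on the rank of Malat1 or on its order with Gas5 was not tested.

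Neat1 (chr19:5824708-5845478, minus strand, 1 exon of 20771 bases) had 102, 2 and 39 counts, or 2.29, 3.98 and 0.953 TPM. Replicate 1 was above replicate 3 with counting intervals that do not meet (1.87 to 2.78 and 0.677 to 1.30 TPM), and replicate 2 covered both. The exon spans the long form of Neat1 that builds paraspeckles, and the tables do not separate it from the short form at the same start. Per length, Malat1 was 7.82, 5.95 and 17.9 times Neat1 in replicates 1, 2 and 3, a mean log2 ratio of 3.23 ± 0.83 that was positive in 3 of 3 libraries. An exact two-sided sign-flip test gave p = 0.25, the smallest that 3 libraries allow, and 0.50 after adjustment over 8 pairs.

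Kcnq1ot1 (chr7:143212155-143296549, minus strand, 1 exon of 84395 bases) had 17, 0 and 9 counts, or 0.094 and 0.054 TPM in replicates 1 and 3. In replicate 2 it had no count, where 3 counts would give 1.47 TPM and the exact upper limit is 1.80 TPM. Those few fragments are spread over the longest exon of the set, so its level was far under that of Malat1, the log2 ratio of Malat1 to Kcnq1ot1 being 7.57 (replicate 1) and 8.30 (replicate 3). Its protein-coding neighbours in the imprinted domain were also close to nothing: Kcnq1, the potassium channel gene it lies within, had 0, 0 and 4 counts, the cell-cycle inhibitor Cdkn1c 0, 0 and 3, and Phlda2 0 in every library. Cd81, a tetraspanin gene of the same region, had 251, 2 and 96 counts, or 40.7, 28.7 and 16.9 TPM.

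The snoRNA hosts were the most abundant class per length. Gas5 (chr1:161034422-161038539, plus strand, 3760 exonic bases) had 1598, 14 and 589 counts, or 198, 154 and 79.5 TPM. Replicates 1 and 3 differed beyond counting error (189 to 208 and 73.2 to 86.2 TPM), and replicate 2, at 84.0 to 258 TPM, overlapped both. It ranked 841st, 1093rd and 1601st of all 50600 genes. Among the 10979 long non-coding genes it ranked 308th, 390th and 655th, and among the 8222 of them without opposite-strand exons first, 7th and 9th. A TPM depends on all the genes it is scaled over: with only genes free of opposite-strand exons in the sum, the mean of Gas5 went from 144 to 480 TPM, and those of Snhg1, Snhg5, Snhg12, Mir17hg and Neat1 rose by a similar factor.

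Snhg1 (chr19:8723475-8726443, plus strand), whose whole span of 2969 bases is annotated as exon, had 453, 10 and 170 counts, or 71.3, 139 and 29.0 TPM. Replicate 2 was the highest of the 3 with an interval of 66.7 to 256 TPM, which met that of replicate 1 (64.8 to 78.1) but not that of replicate 3 (24.8 to 33.8). Snhg1 is known for a very unstable spliced RNA. Because the exon model includes its introns, unspliced and spliced fragments are counted together.

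Snhg5 (chr9:88521050-88522929, minus strand, 1730 exonic bases) had 257, 3 and 94 counts, or 69.4, 71.6 and 27.6 TPM, of which the value of replicate 2 rests on 3 counts. Snhg12 (chr4:132308678-132311024, plus strand, 1626 exonic bases) had 175, 0 and 59 counts, or 50.3 and 18.4 TPM in replicates 1 and 3. In replicate 2, where 3 counts would give 76.2 TPM, the exact upper limit of its 0 is 93.7 TPM, above its level in the deep libraries. Snhg3 (chr4:132348014-132353686, minus strand, 986 exonic bases) had 60, 0 and 22 counts, or 28.4 and 11.3 TPM, and was the lowest of the class in both deep libraries. In all 3 genes replicate 1 was above replicate 3 with intervals that do not meet.

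In the deep libraries the ratios between snoRNA hosts were close to each other, a comparison from which any shift common to the genes cancels. Gas5 was 2.79 and 2.74 times Snhg1 per length in replicates 1 and 3, and 2.86 and 2.88 times Snhg5. Snhg1 was 2.51 and 2.57 times Snhg3, and 1.42 and 1.58 times Snhg12. In replicate 2 Gas5 was 1.10 times Snhg1 and 2.15 times Snhg5, with counting intervals of the log2 ratio from -1.13 to 1.48 and from -0.74 to 3.54. The mean log2 ratios were 1.02 ± 0.76 for Gas5 to Snhg1 and 1.38 ± 0.24 for Gas5 to Snhg5 (SD, n = 3 libraries; exact sign-flip p = 0.25 each, adjusted 0.50).

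The microRNA hosts lay lower. Mir17hg (chr14:115042879-115046727, plus strand, 3536 exonic bases) had 119, 1 and 36 counts, or 15.7, 11.7 and 5.17 TPM. Pvt1 (chr15:62037986-62378096, plus strand, 6996 exonic bases over 340111 bases of genome) had 61, 0 and 34 counts, or 4.07 and 2.47 TPM in replicates 1 and 3. Both were higher in replicate 1, but the intervals of Pvt1 met (3.12 to 5.23 and 1.71 to 3.45 TPM), while those of Mir17hg in replicates 1 and 3 did not. Mir17hg was 3.86 times Pvt1 in replicate 1 and 2.09 times in replicate 3 per exonic length. With the median transcript length in place of the union of exons, a setting chosen after the data were seen, the mean log2 ratio turned from 1.51 to -1.04, because the union of Pvt1 exons is far longer than its median transcript (6996 against 1197 bases). No mature microRNA of Pvt1 was found in the RefSeq table, and the annotation gave 4 genes of miscellaneous RNA in its span, each with 0 counts.

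From highest to lowest, the order of TPM in replicate 1 was Gas5, Snhg1, Snhg5, Snhg12, Snhg3, Malat1, Mir17hg, Pvt1, Neat1 and Kcnq1ot1. Neighbours with overlapping counting intervals were Snhg1 and Snhg5, and Malat1 and Mir17hg. In replicate 3 the order was the same except that Malat1 stood above Snhg3. There the steps from Snhg1 down to Mir17hg all had overlapping intervals between neighbours. In replicate 2 every pair of neighbours overlapped; farther apart, Gas5 (84.0 to 258 TPM) and Snhg1 (66.7 to 256) did not meet Malat1 (6.44 to 60.6).

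Set side by side by class, the median level of the nuclear RNAs on the log2(TPM + 1) scale minus that of the snoRNA hosts was -4.42, -3.87 and -3.87 in replicates 1, 2 and 3 (mean -4.05 ± 0.32, SD, n = 3). In every library these medians were the values of Neat1 and Snhg5, which in replicate 2 rest on 2 and 3 counts. Snhg3 and Snhg12 had 0 counts there. The snoRNA hosts were above the microRNA hosts by 2.93, 4.35 and 2.63 (3.30 ± 0.92). Between nuclear RNAs and microRNA hosts the difference was -1.48, 0.48 and -1.24 (-0.75 ± 1.07), which does not exceed its spread over libraries. These are differences within libraries over 3, 5 and 2 chosen genes and carry no test. Without division by length, on the log2(CPM + 1) scale, the first difference was -1.02, and with median transcript lengths -2.22. The third turned to 1.18 and 1.12 under those settings. As shares of all counts, the snoRNA hosts took 0.0536%, 0.0533% and 0.0264% of replicates 1, 2 and 3 (exact 95% binomial intervals 0.0516% to 0.0558%, 0.0351% to 0.0776% and 0.0247% to 0.0281%). The nuclear RNAs took 0.0082%, 0.0119% and 0.0080%, and the microRNA hosts 0.0038%, 0.0020% and 0.0020%. The share of the snoRNA hosts in replicate 3 was below that of replicate 1 beyond counting error, while that of the nuclear RNAs overlapped between them (0.0074% to 0.0090% and 0.0071% to 0.0090%). Of the nuclear counts, Malat1 made up 268 of 387 in replicate 1 and 235 of 283 in replicate 3, whereas Neat1 went from 102 to 39. Genes without opposite-strand exons also had a median log2 CPM ratio (3 over 1) of -0.84.

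The 5 snoRNA hosts had similar ratios between the deep libraries. Their log2 CPM ratios of replicate 3 to replicate 1 were -1.02 for Gas5, -0.99 for Snhg1, -1.03 for Snhg3, -1.03 for Snhg5 and -1.15 for Snhg12. Neat1 was at -0.97 and Mir17hg at -1.30. Malat1 went the other way, at 0.23 with a counting interval of -0.03 to 0.49. Kcnq1ot1 (-0.50, interval -1.85 to 0.75) and Pvt1 (-0.42, -1.07 to 0.21) had intervals that took in both directions. That of Snhg3 was wide as well (-1.80 to -0.30). Genes without opposite-strand exons had quartiles of -1.04 and -0.64, and 5 of the 10 genes fell within them, 2 below and 3 above. For 8 genes the interval covered their median of -0.84. Gas5 lay below it (-1.16 to -0.88) and Malat1 above it. The 117 long non-coding genes among them had a median of 0.65 and quartiles of -0.71 and 1.03. Against these quartiles 7 of the 10 genes (the 5 snoRNA hosts, Neat1 and Mir17hg) lay below and 3 within, Malat1 among the latter.

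**Figure D2:**
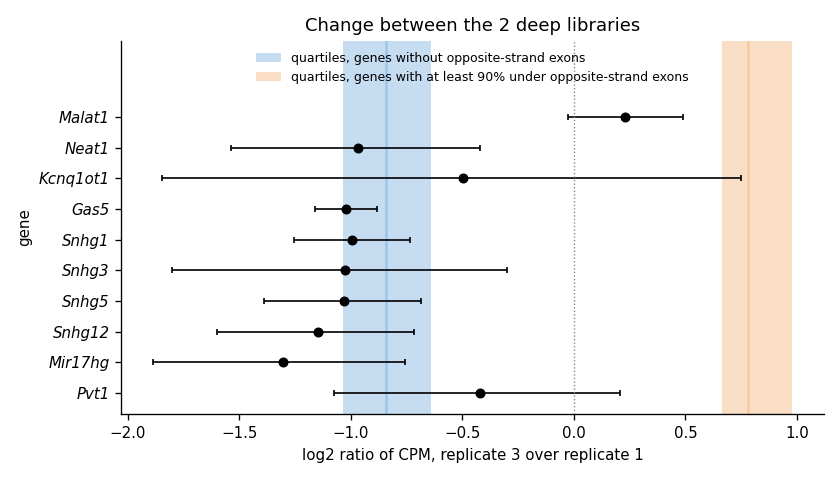
Log2 ratio of CPM in replicate 3 over replicate 1 for each gene, with exact 95% counting intervals, over the quartiles and medians (bands and lines) of genes without opposite-strand exons (left band) and of genes with at least 90% of their exons under the other strand (right band). Malat1, at 0.23, lies between the bands, and the 5 snoRNA hosts lie in or beside the left one.

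Trimmed-mean scaling (TMM, which centres on the bulk of genes) shifted every such ratio up by 0.45 and DESeq2 size factors by 0.56. The snoRNA hosts then ranged from -0.70 to -0.54 and from -0.59 to -0.44, and Malat1 reached 0.68 and 0.79. Pvt1 turned to 0.03 and 0.13, and Kcnq1ot1 to 0.06 with DESeq2 factors.

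To ask whether the 3 libraries differed beyond counting error, a chi-square test of each gene's counts against TMM-scaled totals was run over the 7406 genes that passed edgeR's filterByExpr, with Benjamini-Hochberg adjustment and a threshold of 0.05. In all, 63.2% of these genes were called, so a call is the ordinary outcome here. Of the 6 genes of interest that passed the filter, 5 were called: Gas5 (adjusted p = 1.0e-14), Malat1 (2.0e-06), Snhg1 (2.7e-05), Snhg5 (0.0072) and Mir17hg (0.013). Neat1 was not (0.15). With all genes of at least 10 counts tested, 45.5% of 12920 were called and 6 of the 10, Snhg12 being added. Without the shallow replicate 2, 37.9% of 11003 were called and 3 of the 10 (Gas5, Malat1 and Snhg1). When only genes without opposite-strand exons were scaled and tested, 13.3% of 4136 were called, and 0 of the 5 that could be tested. By that chi-square test with edgeR scaling, 2 of the 5 had an unadjusted p under 0.05, Gas5 (0.036, adjusted 0.17) and Snhg1 (0.047, adjusted 0.20), as did 24.2% of the 4136 genes. Against library totals alone 88.4% were called, Neat1 among them (9.7e-04), and Malat1 was not (0.19).

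Exons of the other strand lay over 4 of the 10 genes. Gas5, Snhg1, Snhg5, Snhg12, Mir17hg and Neat1 shared none. On Malat1, 2 annotated plus-strand genes lie wholly within its exon: ENSMUSG00000092267 (425 exonic bases), which has no symbol, and Gm37376 (453 bases). The first had 385, 24 and 1211 counts, or 423, 2332 and 1446 TPM, and the second 464, 18 and 1201 counts, or 478, 1641 and 1345 TPM. Although together they cover 12.6% of Malat1, each had more counts than Malat1 in every library, and per kb the first had 23.6 and 84.7 times as many in replicates 1 and 3. Their log2 CPM ratios of replicate 3 to 1 were 2.07 and 1.79, against 0.23 for Malat1.

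Snhg3 was the most covered, with 71.5% of its exons under Gm17300, a plus-strand long non-coding gene. Gm17300 had 4261, 99 and 5307 counts, or 1303, 2677 and 1763 TPM, where Snhg3 had 60, 0 and 22 counts. Per kb it had 45.9 times as many in replicate 1 and 156 times in replicate 3, and its log2 ratio was 0.74 while that of Snhg3 was -1.03. On its own strand Snhg3 also shares 135 bases (13.7%) with Rcc1, the exchange factor of the GTPase Ran (667, 9 and 295 counts), and 159 bases with Snora73a. Fragments there could have been discarded as ambiguous, so the low count of Snhg3 is uncertain.

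Pvt1 had 1.56% of its exons under the pseudogene H2afy3 (7, 1 and 12 counts). Kcnq1ot1 had 1.33% under Kcnq1 (0, 0 and 4 counts) and 4 genes annotated as miscellaneous RNA, each with 0 or 1 count per library. How far the opposite-strand counts come from the RNA of the host itself was not tested. Frmd8os, which begins 145 bases from the start of Neat1 on the other strand and shares no exon with it, had 244, 8 and 316 counts, or 186, 540 and 262 TPM, above Neat1 in each library.

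**Figure D3:**
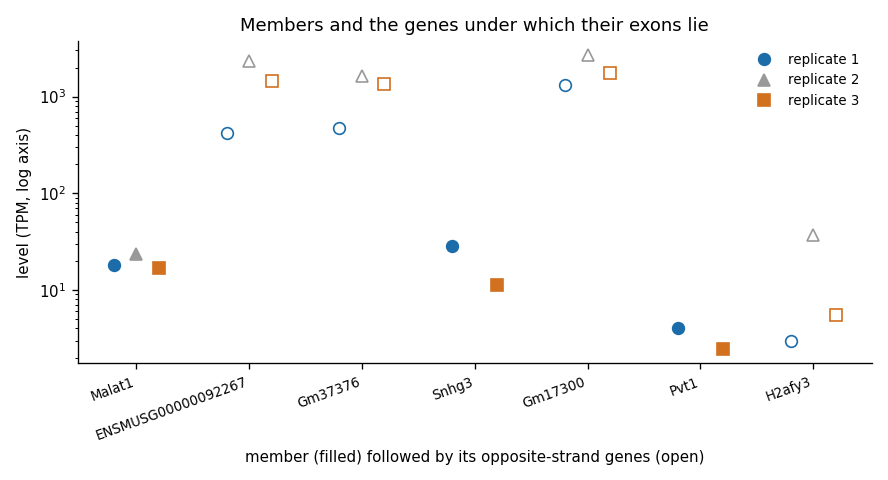
TPM on a log axis of Malat1, Snhg3 and Pvt1 (filled) and of the genes whose exons overlap theirs on the other strand (open), by library; a count of 0 is not drawn. The partners of Malat1 and Snhg3 lie above them in every library, from 423 TPM up, while H2afy3 lies near Pvt1 in replicates 1 and 3. In replicate 2 H2afy3 is at 37.1 TPM on 1 count, where Pvt1 had 0.

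On their own strand, annotated genes shared 17.8% of the exonic bases of Gas5, 20.9% of those of Snhg1 and 15.2% of those of Mir17hg, nearly all snoRNA or microRNA genes. The counts of these hosts therefore leave out fragments over their small RNAs.

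A start inside Gas5 shows the pyrimidine tract known of genes of the translation machinery. The RefSeq promoter table held 9 promoters for 8 of the 10 genes (none for Neat1 or Pvt1). A C at the start site followed by 4 pyrimidines on the gene's strand was found at none of the starts of Snhg1, Snhg3, Snhg5 and Snhg12. It was found in 1 of the 9, the second start of Gas5, against 2.51% of all 32851 promoters. That start lies inside the gene, past its annotated start at 161034422. The other Gas5 window (chr1:161034351-161034650), which holds the annotated start, was without the tract. The second start is given from 20 bases before it to 29 after the first transcribed base (chr1:161035146-161035195, plus strand, GRCm38.p6), with the first 5 transcribed bases in capitals.
Gas5 start: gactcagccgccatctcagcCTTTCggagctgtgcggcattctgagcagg
The letters CACGTG, which Myc and Max bind, were in none of the 9 windows of 300 bases (on either strand, since they read alike on both), against 7.15% of all promoters. That says only that these letters are not in these windows. The window given for Mir17hg (chr14:115044140-115044439) lies inside the gene, past its annotated start at 115042879.

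Related genes give the setting. The list of other snoRNA hosts, which mixes non-coding hosts with genes of known proteins such as Taf1d and Cct6a, had similar medians: 15 of 19 names were found, 12 reached 1 TPM in both deep libraries, and their median log2(TPM + 1) was 5.62, 5.59 and 4.67, against 6.14, 6.18 and 4.84 for the 5 described. Of 12 tested, 5 varied beyond counting error with replicate 3 below replicate 1 and 2 with replicate 3 above, where 23.0% and 22.4% of all genes did so (genes of at least 10 counts, relative to TMM-scaled totals, the rule and scale of all such calls below). The lower ones were Snhg6, Snhg8, Snhg17, Zfas1 and Cct6a, and the higher ones Prkcz2 and Gm12940. The test over all libraries does not test this direction, which is only that of replicate 3 to replicate 1. Without replicate 2 the counts were 4 lower and 2 higher of 10 tested, where 10.5% of all genes were called lower and 27.3% higher. Among genes without opposite-strand exons they were 0 lower and 1 higher (Prkcz2) of 5, where 3.94% of all such genes were called lower and 9.33% higher. These shares are the background for the same settings in each list below, several of whose counts lie near them. The highest of the list were Gm12940, at 276, 478 and 371 TPM with 63.8% of its exons under the other strand, the chaperonin gene Cct6a, at 331, 502 and 144 TPM, and Snhg6, at 168, 72.1 and 67.7 TPM. Snhg6 and Cct6a were lower in replicate 3 than in 1 (log2 ratios -1.01 and -0.90, called), and Gm12940 higher (0.73, called).

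Protein-coding genes that carry snoRNAs in their introns were far higher. The 17 all passed 1 TPM in each library (medians 9.36, 9.20 and 8.20), and 16 were called with replicate 3 lower and 1, Eif4a2, with it higher. Without replicate 2 these counts were 13 and 2 of 17, and among genes without opposite-strand exons 4 and 5 of 12. Rpl4, a ribosomal protein gene, was at 3088, 3662 and 1493 TPM, and the elongation factor gene Eef2 at 1735, 1205 and 789 TPM. Both were called, with log2 CPM ratios of replicate 3 to 1 of -0.75 and -0.84. Among genes without opposite-strand exons both were called again. There the 4 lower calls were those of lowest ratio (Eif4a1, Hspa8, Tpt1 and Rpsa), so the direction of Rpl4 and Eef2 turned.

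Genes for the proteins that pack snoRNAs into particles were expressed, as RNA, nearly without exception. Of 16 names 15 were found and all 15 reached 1 TPM in both deep libraries, with medians of 6.48, 6.24 and 5.25. The highest were Nhp2, of the particles that guide pseudouridylation (267, 216 and 137 TPM), Nop56, of those that guide methylation (256, 171 and 113 TPM), and Ruvbl2, an assembly ATPase (164, 185 and 98.1 TPM). In the list 7 of 15 were called lower in replicate 3, Nop56 among them, and 1 (Znhit3) higher. Without replicate 2 the counts were 4 and 2 of 15, and among genes without opposite-strand exons 0 and 1 (Fbl) of 8.

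Genes for proteins of the paraspeckle lay above Neat1 in RNA per exonic length, and the proteins themselves were not measured. The 12 all passed 1 TPM in each library (medians 6.53, 6.50 and 5.39), and 10 were called, each lower in replicate 3. Without replicate 2, 5 of 12 were called lower, and among genes without opposite-strand exons 1 of 7 was lower (Hnrnpa1) and 1 higher (Sfpq). Hnrnpa1 stood at 953, 753 and 363 TPM, Hnrnpk, which favours the long form of Neat1, at 254, 330 and 92.8 TPM, and Sfpq, a core paraspeckle protein, at 283, 165 and 138 TPM.

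Among other nuclear or chromatin-bound long RNAs, 21 of 27 names were found and 7 of those had no count at all, including Meg3, H19 and Miat. Of these, 4 reached 1 TPM in both deep libraries (Tug1, Snhg14, Rn7sk and Hotairm1), and the medians were 0.72, 0 and 0.28. Of 8 tested, 3 were called lower in replicate 3 (Xist, Tsix and Peg13) and 2 higher (Tug1 and Snhg14). Without replicate 2 the counts were 0 lower and 2 higher of 4, and 0 of the list could be tested among genes without opposite-strand exons. Tug1 stood close to Malat1 at 19.4, 24.8 and 20.8 TPM, and like it was not lower in replicate 3 (log2 ratio 0.40, called). Snhg14, the long host of the Prader-Willi region, was at 29.9, 44.3 and 48.4 TPM (0.99, called). Tsix, which runs antisense to Xist, was at 60.6, 401 and 0.501 TPM and, with 32.0% of its exons under the other strand, moved with Xist.

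For the microRNA hosts, 11 of 15 other names were found and 4 had no count. Of 7 tested, Smc4 and Mir155hg were called lower in replicate 3 and 0 higher. Without replicate 2, Mcm7 and Mirt1 were called higher and none lower of 6. Among genes without opposite-strand exons Smc4 was called higher and none lower of 3, so its direction turned. Smc4, a condensin gene that carries a microRNA pair, stood at 258, 269 and 130 TPM. Mir142hg, of the blood-cell miR-142, was at 78.1, 153 and 26.4 TPM, and Mcm7, a replication helicase gene that carries a cluster related to miR-17-92, at 101, 65.3 and 58.7 TPM. Mir155hg, the host of the T cell activation microRNA miR-155 and named outside the rule, had 57.7, 28.8 and 22.7 TPM. These values were above Mir17hg in each library, though in replicate 2 Mir142hg, Mir155hg and Mir17hg had 1 count each. Smc4 and Mcm7 had 34 and 7 counts there.

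Of 10 genes of microRNA maturation, 7 reached 1 TPM in both deep libraries. The nuclear processor Drosha was at 42.8, 76.5 and 16.4 TPM, the exporter Xpo5 at 55.5, 0 and 19.7 TPM, and Ago2, which holds the mature strand, at 25.8, 30.1 and 12.2 TPM. All 3 were called with replicate 3 below replicate 1, with Ago1 the fourth of 9 tested, and Ago3 was called with it above. Ago3 had 50, 3 and 32 counts, and its log2 CPM ratio of replicate 3 to 1 was -0.22 before TMM scaling. Without replicate 2, Drosha and Xpo5 were lower among 8 tested, and Ago1, Ago2 and Ago3 were not called. Among genes without opposite-strand exons Ago3 was higher and none lower of 5. Of 8 known targets of the miR-17-92 cluster, all reached 1 TPM in both deep libraries, and 4 were called lower, Cyld, Rora and Cdkn1a among them, and 0 higher. Without replicate 2 that was 1 of 8, and among genes without opposite-strand exons 0 of 5. Cdkn1a, a cell-cycle inhibitor, was at 127, 111 and 57.7 TPM, E2f1 at 9.33, 13.1 and 5.47 TPM, and Cyld, a deubiquitinase, at 10.4, 13.1 and 4.19 TPM. E2f1 was not called (adjusted p = 0.97), and Cdkn1a and Cyld were (0.0069 and 0.0087).

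Genes of nonsense-mediated decay, which degrades the spliced snoRNA host RNAs, were all present in both deep libraries (10 of 10, medians 4.71, 3.35 and 3.71). The helicase Upf1 was at 59.2, 35.8 and 32.2 TPM, and Upf3b at 46.8, 20.6 and 21.9 TPM. In the list 5 of 10 were called lower in replicate 3 (Upf2, Upf3b, Smg1 and Smg5 among them) and 0 higher. Without replicate 2 the counts were 1 lower and 2 higher (Smg5, Smg6 and Upf3a in all), and among genes without opposite-strand exons 0 lower and 1 higher (Upf3a) of 6.

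**Figure D4:**
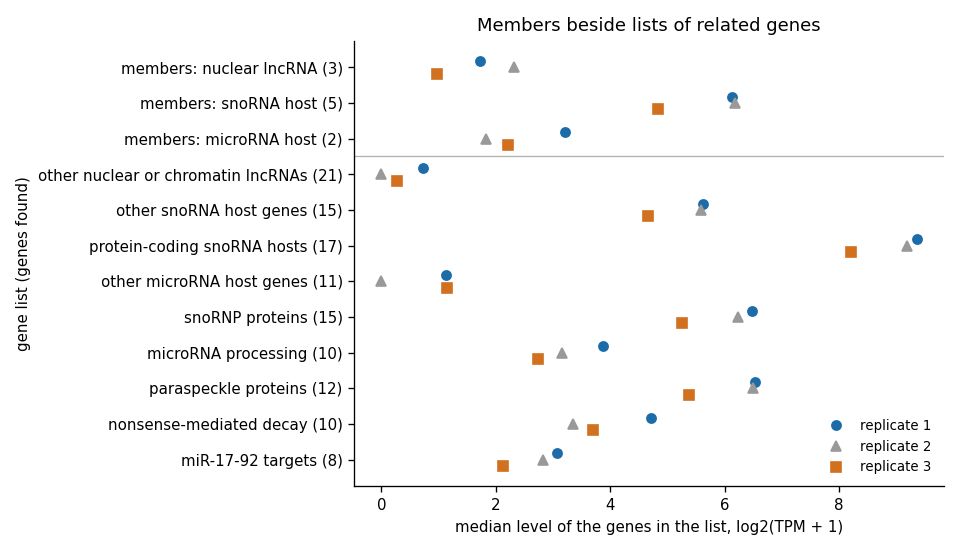
Median log2(TPM + 1) of the 3 classes (above the line) and of 9 lists of related genes (below it) in replicates 1, 2 and 3, with the number of genes found in parentheses. Protein-coding snoRNA hosts stand highest at 8.20 to 9.36, and the other nuclear RNAs lowest at 0 to 0.72.

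Of the closest neighbours, Myc, the growth regulator 47612 bases before Pvt1, was at 233, 137 and 109 TPM. Slc3a2, an amino acid transporter chain that starts 106 bases from Snhg1 in the other direction, was at 84.8, 81.9 and 48.3 TPM, near Snhg1 in replicate 1 (71.3 TPM). Its log2 ratio of replicate 3 to 1 was -0.51 where that of Snhg1 was -0.99. Trnau1ap, which lies between Snhg12 and Snhg3, was at 29.8, 45.7 and 12.2 TPM, close to Snhg3 in the deep libraries (28.4 and 11.3 TPM). The RNA-binding protein gene Syncrip, nearest to Snhg5, was at 49.3, 53.7 and 24.3 TPM. Wdr74, beside Snhg1, was at 7.30, 34.0 and 2.09 TPM, the second of these values resting on 1 count. Phactr4, beside Snhg3, was at 7.53, 0 and 2.76 TPM, and Gm37362, beside Gas5, had 8, 0 and 18 counts. Gpc5, the gene after Mir17hg, had 0 counts in every library, as did Rab42 beside Snhg12. The nearest genes Gm27702, Gm28821, Gm37364, Gm22985, Gm24073 and Gm24810 also had 0 counts throughout.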

How the data were processed

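Per the file headers, the authors counted fragments with both ends mapped over exons by gene using featureCounts 1.4.6-p4 with strand setting 1 on GENCODE M13 (mm10); the deposited tables give whole counts and the exonic length in bases per gene. The sources used here do not give the aligner's version or the kit. From the counts and lengths, CPM and TPM were computed with pandas 2.3.3. Libraries held 4742025, 50627 and 3543816 counts (replicates 1, 2 and 3), and intervals are exact Poisson or binomial at 95% and cover counting error only. Since there is 1 group, no test between groups was possible. Instead a chi-square test of counts over libraries, scaled by TMM of edgeR 4.0.16 in R 4.3.3 and tested on simulated data, was adjusted by Benjamini-Hochberg over all genes kept (threshold 0.05); DESeq2 1.42.0 size factors were an alternative. For ratios between libraries, genes needed at least 50 counts over replicates 1 and 3. Symbols matched 50376 of 50600 identifiers; biotypes and snoRNA sequences came from GENCODE M21 and promoters and microRNAs from RefSeq (GRCm38.p6). Named were the 10 genes, the 3 highest by mean TPM of each list, the genes overlapping them on the other strand and the nearest gene on each side; a few genes that this rule takes are not reported here. The genes and lists were chosen with earlier results of these data known. Other genes that were called in a list of 5 or fewer were named after their values were seen.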

Additional observations from a re-analysis of the deposited data

How the results depend on the processing

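No paired analysis was possible because there is only 1 group. The number of the 10 genes varying beyond counting error was 5 of 6 tested, where 63.2% of all genes tested were called. It was also 5 with DESeq2 size factors (54.3% of all genes) and with library totals (88.4%), the latter with Neat1 in place of Malat1. The number was 6 of 10 tested with genes of at least 10 counts (45.5%). It ranged from 0 to 3 with 1 replicate left out (3 of 10 tested without replicate 2, 1 of 6 without replicate 1 and 0 of 6 without replicate 3, where 37.9%, 9.47% and 3.65% of all genes tested were called) and was 0 among genes without opposite-strand exons. For all genes, 4681 of 7406 varied; leaving out a replicate gave 271 of 7427 to 4167 of 11003, and genes without opposite-strand exons gave 549 of 4136. The difference of nuclear RNAs minus snoRNA hosts (-4.05) stayed negative, at -4.57 with a pseudocount of 0.1, -1.02 in CPM, -2.98 with means and -2.22 with median transcript lengths, and at -4.14 to -3.87 with 1 replicate left out. Nuclear RNAs minus microRNA hosts (-0.75) turned to 1.18 in CPM and 1.12 with transcript lengths, where length is what was changed, and ranged from -1.36 to -0.38 with 1 replicate left out. SnoRNA minus microRNA hosts (3.30) was 2.20 in CPM, and 2.78 to 3.64 with 1 replicate left out. The transcript lengths were added after the data were seen. Mir17hg to Pvt1 turned to -1.04 with them. Between replicates 3 and 1, Pvt1 (-0.42) turned to 0.030 (TMM) and 0.134 (DESeq2) and Kcnq1ot1 (-0.50) to 0.060 (DESeq2). The genes at 1 TPM or more in every library were 5 to 8 with 1 replicate left out, 8 without replicate 2. With only genes free of opposite-strand exons in the denominator, TPM rose, for Gas5 from a mean of 144 to 480. Depth limits replicate 2, in which 4 of the 10 genes had 0 counts.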
